A study of Homo sapiens with 12 samples.

Results

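The NF-κB family and its brakes were followed in JEKO-1 tumors grown in mice. The 10 genes were the 5 subunits NFKB1, NFKB2, REL, RELA and RELB, and the inhibitory or co-regulatory genes NFKBIA, NFKBIB, NFKBIE, TNFAIP3 and BCL3, out of 18239 genes measured on the same arrays. The rule names them and uses no measured value, although earlier results of these data were known when it was set. JEKO-1, an established human line of mantle cell lymphoma, was implanted under the skin of young female CB17-SCID mice, hosts without working lymphocytes that keep macrophages and NK cells. The 4 groups of 3 tumors came from mice given acadesine at 400 mg/kg plus rituximab at 10 mg/kg, acadesine alone, rituximab alone, or vehicle (control), and all tumors were collected on day 18. The labels give acadesine daily and the methods give it with days off each week; rituximab was weekly in both. Acadesine is a nucleoside drug that switches on AMPK inside cells, whereas rituximab is an antibody that binds CD20 on B cells. The study chose the tumors as representative of each cohort, and all of them derive from 1 cell line. Each tumor was read on 1 Affymetrix HT HG-U219 array, as RMA expression on the log2 scale, where a difference of 1 is a doubling. Where a gene had several probe sets, the brightest on average was taken. Gene changes are differences of group means from one limma fit of the 4 groups, with p values adjusted over all 18239 genes, and a gene that passed had an adjusted p under 0.05.

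NF-κB proteins are transcription factors that work as pairs of subunits. In resting cells the IκB proteins hold them in the cytoplasm. Signals from the B cell receptor, CD40 or Toll-like receptors activate the IKK kinases, IκB is destroyed, and the dimers enter the nucleus. Several inhibitors are themselves NF-κB target genes, which makes the pathway turn itself off. In mantle cell lymphoma the pathway is a known survival signal, and TNFAIP3 is a gene that these lymphomas can lose.

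Array medians lay between 4.59 and 4.66. The B cell gene MS4A1 (CD20) was between 11.9 and 12.6 in every tumor, while the monocyte gene CD14 did not exceed 3.87 and CD68 did not exceed 4.74. The highest of the 13 macrophage genes, AIF1, was between 7.87 and 8.43. The array targets human genes, so these values need not reflect the macrophages of the mouse host. Of 29 skeletal muscle genes 26 were higher in combination than in control tumors, where 49.6% of all genes were lower. Of the 29, 3 passed the test (LDB3, MYL11 and TNNI2), beside 2.47% of all genes. The mean muscle level (log2, relative to the control mean) was -0.13, 1.63 and 0.84 in combination tumors 1, 2 and 3, -0.01, 0.47 and 0.23 in acadesine tumors, -0.12, 0.41 and -0.13 in rituximab tumors, and between -0.09 and 0.06 in control tumors. LDB3 did not follow this level. It was 8.48, 8.94 and 8.52 in combination tumors 1, 2 and 3, against 6.92 to 7.76 in control tumors. In the other marker lists, none of 7 B cell and lymphoma genes passed, 4 having higher and 3 lower means. SOX11 had 0.96, CD79A -0.34 and MS4A1 -0.24 (adjusted p = 0.0503, 0.153 and 0.270 from limma). SOX11 lay above every control tumor. CD79A and MS4A1 lay below every control tumor, as 9.08% of all genes did. None of 13 macrophage or 10 endothelial genes passed. COL3A1, dim at 4.44 to 4.86 in combination tumors and 3.76 to 4.06 in control tumors, rose among 14 fibroblast genes. CD5, which mantle cell lymphoma cells also carry, fell among 12 T and NK cell genes. In such bulk tumors, fewer lymphoma cells and less RNA per cell cannot be told apart.

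Most of these genes hold a match to the NF-κB consensus, the DNA word its dimers recognize, near their start sites. In RefSeq promoter windows, 250 bases before to 50 after an annotated start (GRCh38.p14), the NF-κB consensus of 10 letters was searched on both strands, a site that reads alike on both being counted once. It was found for 7 of the 8 members that had a window, in 8 of 13 windows, against 7.73% of 35116 windows of all genes; RELA was the member without a match. The 200 bases before the start are shown 5′ to 3′ for the 3 genes that passed the test in combination tumors and, as a contrast chosen after the values were seen, for NFKB2, whose difference was -0.07. Capitals mark the consensus matches.
NFKB1 (chr4:102501159-102501358, plus strand): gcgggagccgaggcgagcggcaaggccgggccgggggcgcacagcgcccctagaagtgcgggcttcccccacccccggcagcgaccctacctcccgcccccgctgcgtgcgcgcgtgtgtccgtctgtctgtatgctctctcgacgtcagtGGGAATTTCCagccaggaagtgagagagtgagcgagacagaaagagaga
NFKBIA (chr14:35404750-35404949, minus strand): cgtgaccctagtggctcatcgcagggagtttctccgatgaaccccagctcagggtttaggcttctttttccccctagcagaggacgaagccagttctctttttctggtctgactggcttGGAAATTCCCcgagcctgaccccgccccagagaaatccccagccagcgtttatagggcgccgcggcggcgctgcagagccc
TNFAIP3 (chr6:137867059-137867258, plus strand): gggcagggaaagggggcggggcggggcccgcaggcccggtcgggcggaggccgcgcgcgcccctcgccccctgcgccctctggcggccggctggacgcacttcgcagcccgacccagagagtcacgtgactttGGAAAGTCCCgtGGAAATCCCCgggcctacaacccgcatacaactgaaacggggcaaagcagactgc
NFKB2 (chr10:102394378-102394577, plus strand): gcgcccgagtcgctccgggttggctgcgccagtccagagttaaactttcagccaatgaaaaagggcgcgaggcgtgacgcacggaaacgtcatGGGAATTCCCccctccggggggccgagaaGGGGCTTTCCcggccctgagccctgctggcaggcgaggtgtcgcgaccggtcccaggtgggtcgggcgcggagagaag
With -1 as the base before the start, NFKB1 had 1 match at -49 to -40, NFKBIA 1 match at -81 to -72, and TNFAIP3 2 matches at -67 to -58 and -55 to -46. NFKB2 had 2 matches in the window shown and 2 more in another window. A match is a string of letters, and binding was not measured.

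In tumors treated with both drugs all 10 genes had lower means than in control tumors, a side on which 49.6% of all genes lay, subunits and inhibitors alike, and NFKB1, NFKBIA and TNFAIP3 passed the test. The 3 called genes of 10 stand beside 2.47% of all genes called, 1.33% called lower. Groups did not overlap for 8 of the 10, with every combination tumor below every control tumor, which held for 9.08% of all genes and for 12.7% of the 9756 genes whose highest group mean was at least 5, a level that all 10 reached. The median difference was -0.33 on the log2 scale over the 10 genes and 0.0018 over all genes. The changes were modest: 2 of 10 exceeded 1.4-fold, as did 4.23% of all genes.

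**Figure D1:**
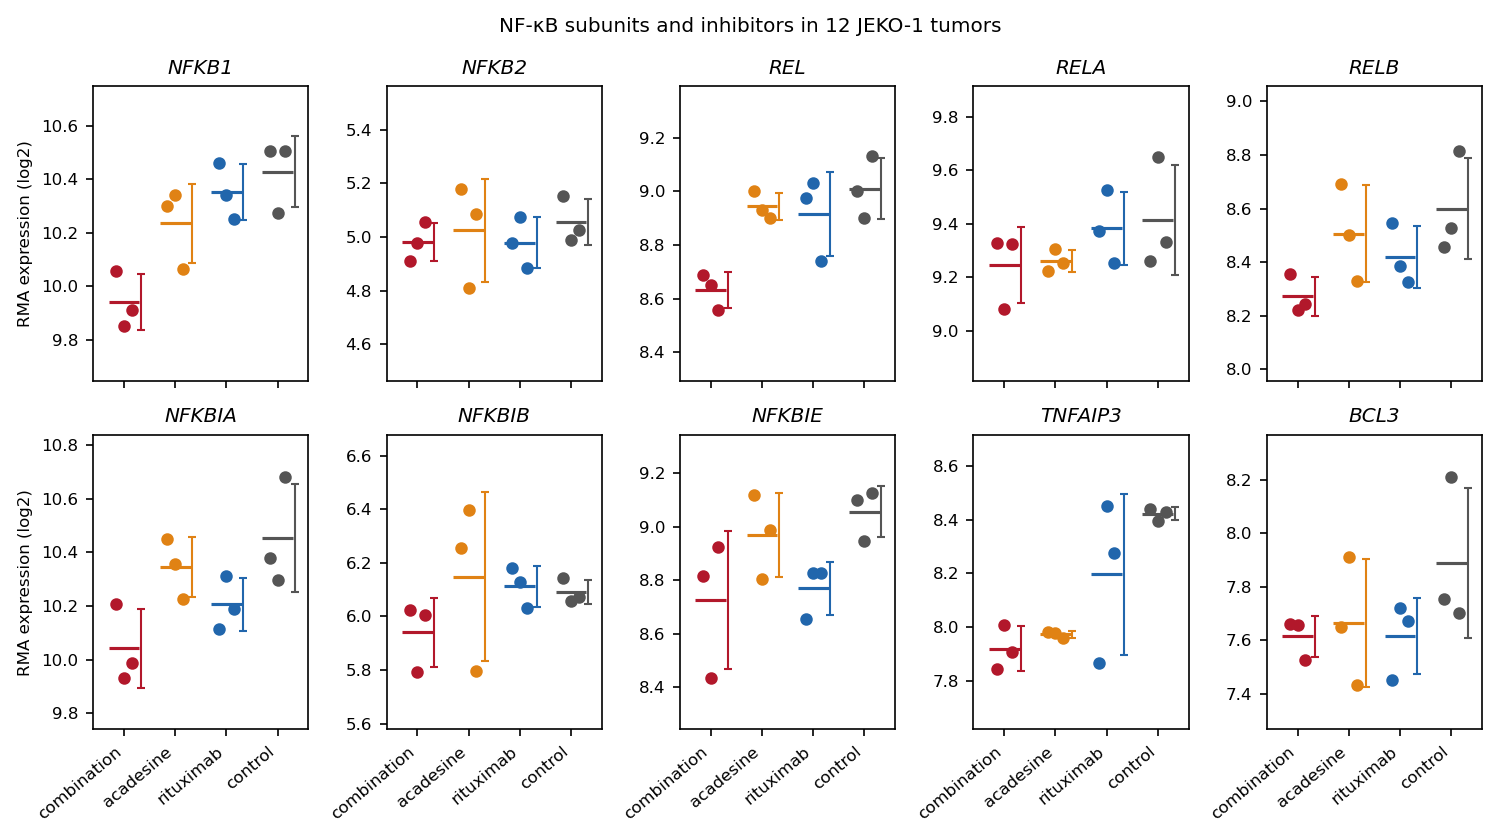
RMA expression (log2, vertical axis, the same span in each panel) of the 10 genes in every tumor, by group; horizontal lines are group means and bars are SD (n = 3). Combination tumors sit below all control tumors in 8 panels, the exceptions being NFKB2 and RELA, and the 3 acadesine tumors sit together near 7.97 for TNFAIP3.

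NFKB1 encodes the precursor of the p50 subunit, which pairs with REL or RELA. Its level was 10.06, 9.85 and 9.91 in combination tumors, against 10.51, 10.27 and 10.50 in control tumors. Every combination tumor lay below the lowest control. The difference was -0.49 (standard error 0.097, adjusted p = 0.00869 from limma). REL, the subunit most tied to lymphocytes, was 8.69, 8.65 and 8.56 in combination tumors, against 9.00, 8.90 and 9.13 in control tumors. Again the groups did not overlap, but the difference of -0.38 (standard error 0.108) had an adjusted p = 0.0696 from limma. RELB, the partner of the non-canonical pathway, was 8.36, 8.22 and 8.24 in combination tumors, against 8.46, 8.53 and 8.82 in control tumors, a difference of -0.33 (standard error 0.126, adjusted p = 0.217 from limma). The groups were again apart, by a narrow gap. RELA, the widely used activating subunit, was 9.33, 9.08 and 9.32 in combination tumors, against 9.26, 9.65 and 9.33 in control tumors, and these overlapped. Its difference was -0.17, with a 95% interval from -0.41 to 0.07. NFKB2, the precursor of the non-canonical p52 subunit, had a dim probe set, with 4.91, 4.98 and 5.06 in combination tumors, against 5.15, 4.99 and 5.03 in control tumors. Its groups overlapped, with a difference of -0.07 and an interval from -0.39 to 0.24.

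Among the 5 inhibitory and co-regulatory genes NFKBIA and TNFAIP3 passed the test. NFKBIA encodes IκBα, the inhibitor that NF-κB itself induces. It was 10.21, 9.93 and 9.99 in combination tumors, against 10.38, 10.30 and 10.68 in control tumors. All combination tumors lay below the controls, control tumor 3 being the highest of all, and the difference was -0.41 (adjusted p = 0.0380 from limma, standard error 0.105). TNFAIP3 encodes A20, an enzyme that edits ubiquitin and stops signaling upstream of IKK. It was 7.84, 8.01 and 7.91 in combination tumors, against 8.44, 8.40 and 8.43 in control tumors. The gap between the groups was wide for this gene, and the difference was -0.50 (adjusted p = 0.0479 from limma, standard error 0.134). NFKBIE, which encodes IκBε, was 8.81, 8.43 and 8.93 in combination tumors, against 9.10, 8.95 and 9.12 in control tumors. Combination tumor 3 lay just under the lowest control, and the difference of -0.33 (adjusted p = 0.209 from limma, standard error 0.126) did not pass, and was -0.19 without combination tumor 2. BCL3, an IκB-like protein that works in the nucleus with p50 and p52, was 7.66, 7.66 and 7.53 in combination tumors, against 7.76, 8.21 and 7.70 in control tumors. Control tumor 2 alone was high, and the difference was -0.27 (standard error 0.154, adjusted p = 0.462 from limma), or -0.11 without that tumor. NFKBIB, which encodes IκBβ, was 6.02, 5.79 and 6.01 in combination tumors, against 6.14, 6.06 and 6.07 in control tumors, close to each other without overlap. Its difference was -0.15, with an interval from -0.51 to 0.21.

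Each of the 3 calls was lost without some of the tumors. NFKB1 did not pass without control tumor 1 or 3 or combination tumor 2 (adjusted p = 0.0522, 0.0608 and 0.0625 from limma). NFKBIA did not pass without control tumor 1 or 3, rituximab tumor 3, or combination tumor 2 or 3 (adjusted p from 0.0505 to 0.234 from limma), and TNFAIP3 did not pass when any one of the control or combination tumors, acadesine tumor 1 or 3, or rituximab tumor 3 was left out (adjusted p from 0.0583 to 0.180 from limma). Skeletal muscle transcripts were high in combination tumors 2 and 3. When the muscle level entered the fit the differences were -0.41 for NFKB1, -0.31 for NFKBIA and -0.62 for TNFAIP3, none past the test (adjusted p = 0.136, 0.355 and 0.0828 from limma). Without the 4 tumors of highest muscle level (combination 2 and 3, acadesine 2 and rituximab 2), which leaves 1 combination tumor assumed to vary like the other groups, they were -0.37, -0.25 and -0.58, none past the test (adjusted p = 0.437, 0.738 and 0.281 from limma). The part of the muscle transcripts in these differences was not tested further.

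**Figure D2:**
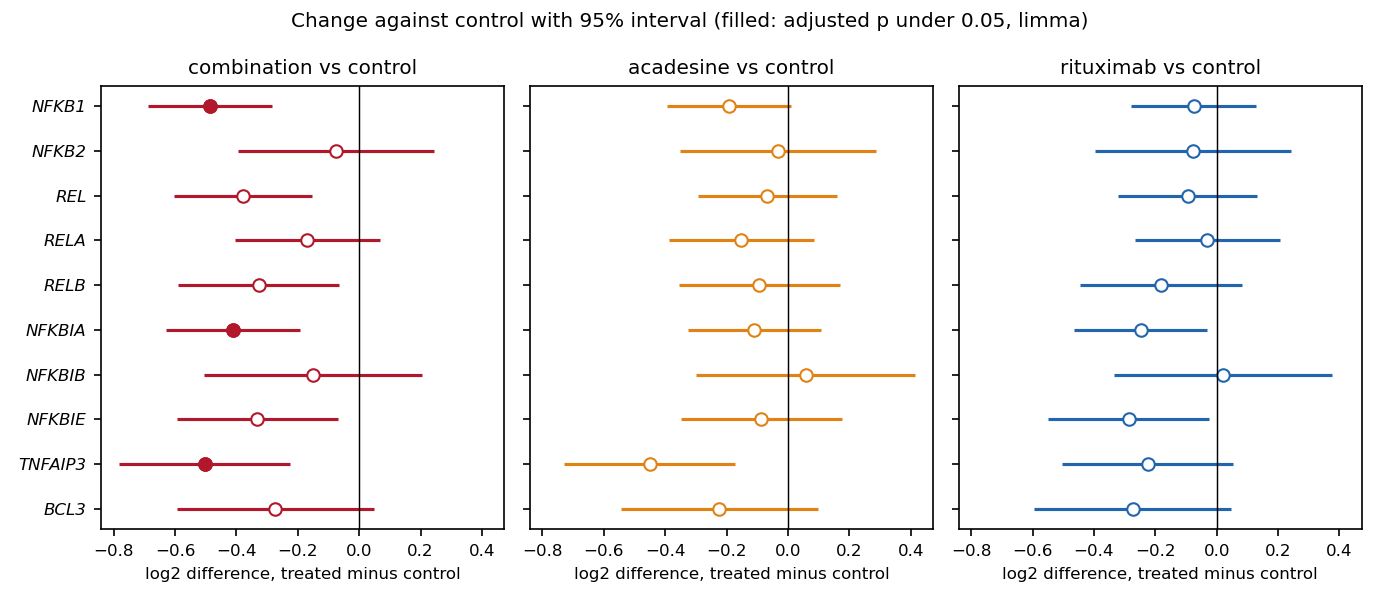
Differences of mean log2 expression from control with 95% intervals (horizontal axis) for each gene, in combination, acadesine and rituximab tumors (n = 3 per group); filled points passed the test. The filled points are NFKB1, NFKBIA and TNFAIP3 with the combination, and among the single-agent values plotted TNFAIP3 after acadesine lies farthest from 0, at -0.45.

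With acadesine alone the outstanding gene was TNFAIP3. Its values were 7.98, 7.98 and 7.96 in acadesine tumors, against 8.44, 8.40 and 8.43 in control tumors. In this probe set both groups were tight, with SDs of 0.012 and 0.024, and they lay far apart. In the second TNFAIP3 probe set the SDs were 0.11 after acadesine and 0.23 in control tumors, also without overlap. The difference was -0.45 (standard error 0.134, unadjusted p = 0.00292), but over all genes it did not pass (adjusted p = 0.564 from limma). After acadesine 9 of 10 genes had lower means, beside 47.8% of all genes, NFKBIB being the exception at 0.06, and the median difference was -0.10. NFKB1 had -0.19, with a 95% interval from -0.39 to 0.01, and BCL3 -0.22. RELA had -0.15, NFKBIA -0.11, RELB -0.09, NFKBIE -0.09, REL -0.07 and NFKB2 -0.03. The groups overlapped for every gene but TNFAIP3, as for most of all genes, of which 5.95% had acadesine tumors below all controls. Limma called 0 of the 10 genes, and 0% of all genes, and 1 of the 10 had an unadjusted p under 0.05 where 7.80% of all genes did.

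With rituximab alone NFKBIA and NFKBIE had the lowest unadjusted p values of the 10 genes, and NFKBIB the highest. NFKBIE was 8.66, 8.83 and 8.83 in rituximab tumors, against 9.10, 8.95 and 9.12 in control tumors. These groups did not overlap, as held for 4.56% of all genes in this direction, and the difference was -0.29 (standard error 0.126, adjusted p = 1.00 from limma). NFKBIA was 10.12, 10.31 and 10.19 in rituximab tumors, against 10.38, 10.30 and 10.68 in control tumors, and rituximab tumor 2 reached into the control range. Its difference was -0.25 (standard error 0.105). In the probe set used, TNFAIP3 was uneven, with 7.87, 8.45 and 8.27 in rituximab tumors. Of these, tumor 1 was as low as the combination tumors and tumor 2 above all controls. The second TNFAIP3 probe set was even there, with 6.29, 6.31 and 6.26. BCL3 had -0.27, TNFAIP3 -0.23, RELB -0.18, REL -0.10, NFKB1 -0.08, NFKB2 -0.08, RELA -0.03 and NFKBIB 0.02. Of the 10 genes 9 had lower means, beside 50.5% of all genes. Limma called 0 of the 10 genes and 0% of all genes, and 2 of the 10 had an unadjusted p under 0.05, where 4.21% of all genes did. The 3 comparisons with control share the control tumors.

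Set against the single agents, combination tumors lay below every acadesine and every rituximab tumor in NFKB1 and REL. NFKB1 averaged 9.94 ± 0.11 in combination tumors, 10.24 ± 0.15 after acadesine, 10.35 ± 0.10 after rituximab and 10.43 ± 0.13 in control tumors (SD, n = 3 each). Combination tumors lay below every tumor of the other groups, by a narrow gap from acadesine tumor 3, while acadesine, rituximab and control overlapped. Against rituximab NFKB1 fell by 0.41 on the log2 scale (standard error 0.097, adjusted p = 0.0255 from limma), the only one of the 10 genes called there, beside 2.82% of all genes. Leaving out rituximab tumor 1, rituximab tumor 2, combination tumor 2 or combination tumor 3 ended that call (limma, adjusted p between 0.0726 and 0.136). Against acadesine the NFKB1 difference was -0.29 (standard error 0.097, adjusted p = 0.123 from limma), and limma called 0 of the 10 genes, beside 2.45% of all genes, while 3 had an unadjusted p under 0.05, as 15.3% of all genes did. REL was also lowest with the combination, at 8.63 ± 0.07 in combination tumors, 8.94 ± 0.05 after acadesine, 8.92 ± 0.16 after rituximab and 9.01 ± 0.12 in control tumors. The combination differed by -0.31 from acadesine (adjusted p = 0.145 from limma) and by -0.28 from rituximab (adjusted p = 0.190 from limma), without overlap in either. This rests on 1 of the 2 REL probe sets: the second overlapped in both comparisons, with -0.15 against acadesine and -0.28 against rituximab, and had -0.40 after acadesine alone against control (unadjusted p = 0.00699, adjusted p = 0.566 from limma), without overlap. Such a separation below the single agent was found for 3 of 10 genes against acadesine (10.8% of all genes) and for 3 of 10 against rituximab (9.80%). NFKBIA averaged 10.04 ± 0.15 in combination tumors, 10.34 ± 0.11 after acadesine, 10.21 ± 0.10 after rituximab and 10.45 ± 0.20 in control tumors. It did not overlap between combination and acadesine, with -0.30 (adjusted p = 0.142 from limma), and overlapped with rituximab, with -0.16.

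For TNFAIP3, NFKBIE, BCL3, RELA and NFKB2 the mean after at least 1 of the single agents lay close to that of the combination. TNFAIP3 averaged 7.92 ± 0.08 in combination tumors and 7.97 ± 0.01 after acadesine, a difference of -0.05 with a 95% interval from -0.33 to 0.23, 8.20 ± 0.30 after rituximab and 8.42 ± 0.02 in control tumors. NFKBIE averaged 8.72 ± 0.26 in combination tumors and 8.77 ± 0.10 after rituximab, a difference of -0.05 with an interval from -0.31 to 0.22, against 8.97 ± 0.16 after acadesine and 9.06 ± 0.10 in control tumors. These intervals leave room for differences of about the size seen elsewhere in the family. BCL3 averaged 7.62 ± 0.08 in combination tumors, 7.67 ± 0.24 after acadesine, 7.61 ± 0.14 after rituximab and 7.89 ± 0.28 in control tumors. All neighbours in this order overlapped. RELB averaged 8.27 ± 0.07 in combination tumors, 8.51 ± 0.18 after acadesine, 8.42 ± 0.11 after rituximab and 8.60 ± 0.19 in control tumors. Its combination tumors were apart from control tumors alone, with -0.23 against acadesine and -0.15 against rituximab. RELA had -0.02 against acadesine and -0.14 against rituximab, NFKB2 -0.04 and 0.0023, and NFKBIB -0.21 and -0.17, all within overlapping ranges except NFKBIB against rituximab; none passed the test.

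The interaction, how far the combination departs from both single-agent changes added together, asks whether the drugs added up on the log2 scale. For NFKB1 the single-agent changes summed to -0.27, and the combination's -0.49 departed from this by -0.22, with a 95% interval from -0.51 to 0.07 (adjusted p = 0.602 from limma). REL was alike, with a sum of -0.16 and a departure of -0.22. TNFAIP3 went the other way, with a sum of -0.68 and a departure of 0.17 (interval from -0.22 to 0.57, and 0.0065 without rituximab tumor 1 or 0.30 without rituximab tumor 2), as did BCL3, with a sum of -0.50 and a departure of 0.22. NFKBIB departed by -0.23, RELB by -0.05, NFKBIA by -0.05, NFKBIE by 0.04, NFKB2 by 0.03 and RELA by 0.01. Limma called 0 of the 10, beside 0.280% of all genes, and 0 had an unadjusted p under 0.05, beside 10.8%.

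Other probe sets of the same genes gave a check. The 10 genes had 22 probe sets, 4 genes having a single one. Of the 12 that were not used above, 9 were lower in combination than in control tumors, 4 of them without overlap, and 5 were dim, with means under 5. Over all genes, at 1 probe set each, 49.6% were lower and 9.08% were lower without overlap. Shares over all probe sets are not given here. The bright probe sets of REL and NFKBIA ran the same way in this comparison. The second REL probe set was 7.80, 7.92 and 7.80 in combination tumors, against 8.43, 8.28 and 8.47 in control tumors, a difference of -0.55 (standard error 0.136). With p values adjusted over 45253 probe sets it passed (adjusted p = 0.0402 from limma), while the REL probe set with the highest mean did not (adjusted p = 0.101). The other NFKBIA probe sets had -0.46 (adjusted p = 0.0202 from limma) and -0.36 (adjusted p = 0.0931). The second TNFAIP3 probe set also separated the groups, with 6.07, 5.90 and 6.08 in combination tumors, 6.12, 6.10 and 5.92 after acadesine, 6.29, 6.31 and 6.26 after rituximab, and 6.34, 6.37 and 6.76 in control tumors. Each treated tumor lay below the lowest control in that probe set. NFKBIB was inconsistent: its other probe sets had 0.16, -0.10 and 0.12, so that no direction can be given for this gene. The first of these was 6.15, 6.40 and 5.93 after rituximab, against 5.51, 5.70 and 5.69 in control tumors, which did not overlap (0.52, unadjusted p = 0.00567, adjusted p = 1.00 from limma), while the probe set used above had 0.02. Those of BCL3 had -0.16, -0.10 and -0.01 and those of RELA -0.19 and 0.02, all dim.

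**Figure D3:**
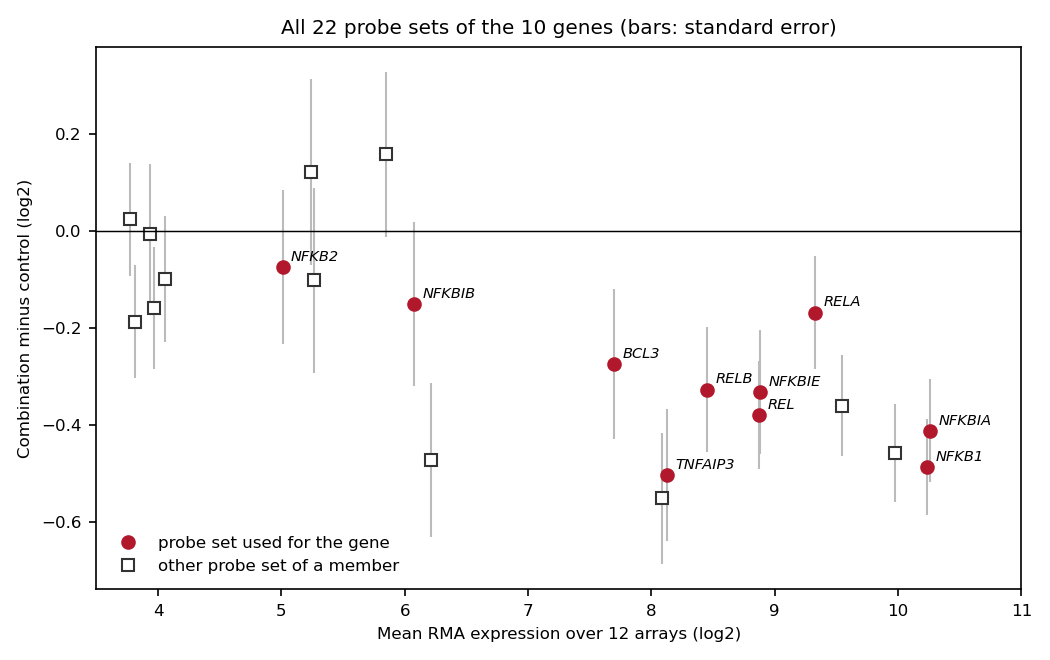
Combination minus control (log2, vertical axis, bars are standard errors) against the mean RMA expression over the 12 arrays (log2, horizontal axis) for all 22 probe sets of the 10 genes. Probe sets with a mean above 7 are all below 0, while the dimmer ones lie on both sides.

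Among themselves, the subunits NFKB1, REL and RELB and the inhibitor NFKBIA varied together. As a description, deviations of the 12 tumors from their own group means had a Pearson coefficient of 0.62 for NFKB1 and REL, 0.66 for NFKB1 and RELB, 0.64 for REL and RELB, and 0.59 to 0.69 for NFKBIA with each of these 3. All pairs of the 10 genes ranged from -0.53 (NFKB2 and BCL3) to 0.78 (NFKB1 and NFKBIB), and TNFAIP3 had -0.34 with NFKB1. The points share array normalization. Over the 12 tumors with their group differences included, the genes most like NFKB1 were MRTFB, VCL and NLRC3 (coefficients of 0.96, 0.94 and 0.94), those most like NFKBIA were SH3BP1, PTPN1 and RASSF5 (0.92, 0.92 and 0.91), and those most like TNFAIP3 were KLHL5, HMGN1 and CAPZA1 (0.95, 0.94 and 0.92). VCL anchors actin at adhesions, and PTPN1 is a phosphatase also listed here as an NF-κB target.

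The wider pathway was compared in combination and control tumors by lists. Among 40 measured NF-κB target genes, 9 fell and 1 rose, beside 2.47% of all genes called and 1.33% called lower, and the median difference was -0.32, beside 0.0018 over all genes. CD44, an adhesion receptor, had a difference of -0.93 (standard error 0.136, adjusted p = 0.000691 from limma), with 9.76, 9.39 and 9.82 in combination tumors, against 10.57, 10.44 and 10.75 in control tumors. CD40, the receptor that T cells use to activate B cells, fell by 0.62 on the log2 scale, with 9.83, 9.56 and 9.73 in combination tumors, against 10.26, 10.24 and 10.48 in control tumors. The survival gene BCL2A1 had -1.75 and the peptide transporter TAP1 -0.53, while IRF4, a transcription factor of activated B cells, rose by 0.38. None of these groups overlapped. Of 15 further inhibitors of the pathway, 12 were lower, and 1 passed, beside the same 2.47% of all genes: CYLD, which removes the ubiquitin chains that carry the signal, with 8.36, 8.01 and 8.33 in combination tumors, against 8.64, 8.69 and 8.83 in control tumors (-0.49, adjusted p = 0.0315 from limma).  No gene of this list passed without control tumor 3 or without combination tumor 2. The median of these inhibitors was -0.12.

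Upstream of NF-κB, 12 genes of the IKK complex, its upstream kinases and their adaptors were measured. Limma called 0 of them, beside 2.47% of all genes, and their median was -0.04. TAB3, an adaptor of the kinase TAK1, had -0.36 and MAP3K1 -0.21. After acadesine alone TAB3 had -0.35 and MAP3K1 -0.41, both without overlap with control. Of the 12 genes 3 lay below all controls, beside 5.95% of all genes, and 2 above, IKBKG (0.31, dim) and MAP3K3 (0.24). Means were higher for 6 and lower for 6, with a median of 0.03. MAP3K1 did not pass there either (unadjusted p = 4.5e-05, adjusted p = 0.548 from limma). With 1 drug, limma called 0 genes of the lists of targets, further inhibitors and IKK genes, beside 0% of all genes. After acadesine an unadjusted p under 0.05 was found for 4 of 12 IKK genes, 1 of 15 further inhibitors and 4 of 40 targets, beside 7.80% of all genes. After rituximab it was found for 1 of 12, 0 of 15 and 5 of 40, beside 4.21% of all genes. The median of the 40 target genes was -0.08 after acadesine and -0.11 after rituximab.

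**Figure D4:**
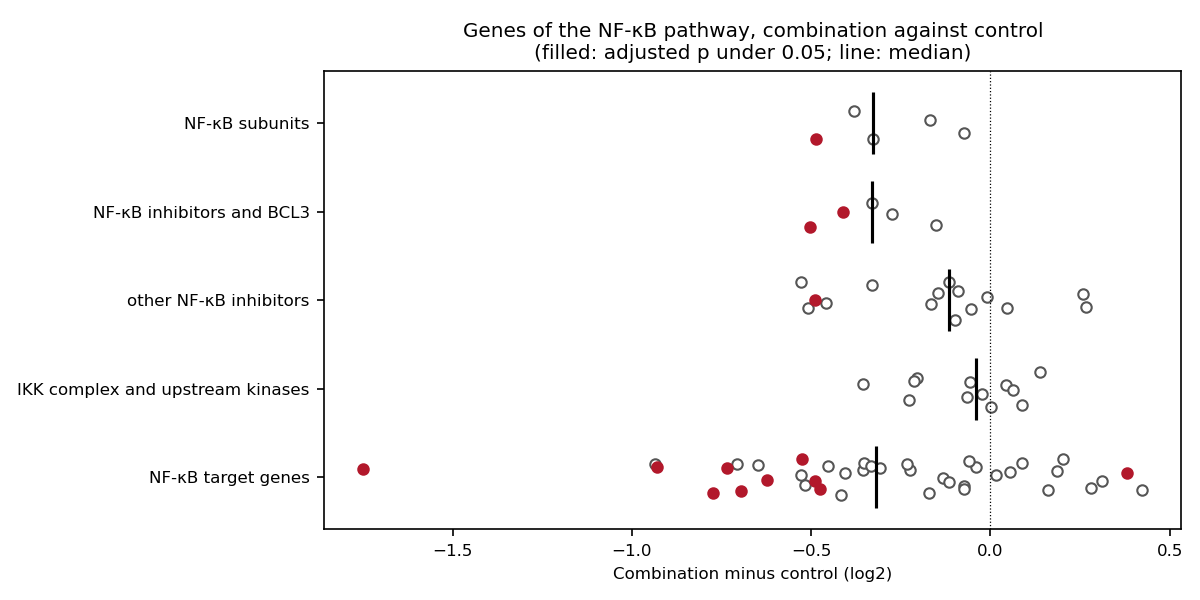
Combination minus control (log2, horizontal axis) for each gene of 5 lists of the NF-κB pathway (rows; vertical scatter within a row has no meaning), with filled points past the test and a line at each list's median. The medians of subunits, of the 5 inhibitory and co-regulatory members and of target genes are -0.33, -0.33 and -0.32. That of the 15 other inhibitors is -0.12, and that of the IKK list lies at -0.04.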

How the data were processed

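The authors extracted total RNA from frozen tumors, hybridized biotin-labeled cRNA to Affymetrix HT HG-U219 arrays and normalized the scans with RMA in the BioConductor affy package (version not given in the sources used here). The deposited values are log2 RMA expression, a method that subtracts background, equalizes the arrays' distributions and fits 1 value per probe set, and which compresses changes of dim genes. There were 12 arrays, 1 per tumor, and their number limits the precision. Groups came from the sample titles. Of 49386 probe sets, 93 were Affymetrix controls and were left out, and 45253 others named 1 gene through the platform annotation, with symbols updated by gene ID; 1327 naming several genes were not used. Each gene took its probe set with the highest mean. The 4 group means were estimated by limma 3.58.1 under R 4.3.3 (intensity trend, Benjamini-Hochberg adjustment over 18239 genes). Tables and figures used Python 3.11.15, pandas 2.3.3, numpy 2.4.6 and matplotlib 3.10.9. Rank Products, the test of the methods, was not run, since it resamples ranks over genes. With 3 tumors a group, the smallest two-sided p of an exact permutation test is 0.1, so this test was not used. The labels call the tumors biological replicates.

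The members and lists were chosen with earlier results of these data known. All 10 members were named in each comparison; of each other list, the genes that passed in combination against control (if more than 8, the 4 with the smallest p in each direction; if none, the 2 with the smallest p); and the 3 genes most like each called member. For cell type lists without a call only SOX11, CD79A, AIF1 and the defining markers CD14, CD68 and MS4A1 were described. Alternatives were the tumor number as a block, other probe set rules, a filter on genes under 5, other variance models, array weights, other normalizations, only the groups compared, adjustment for the muscle level, leaving out the 4 tumors with muscle transcripts, and leaving out each tumor. One of the pathway lists is not reported here.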

Additional observations from a re-analysis of the deposited data

How the results depend on the processing

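The 3 called genes in combination against control became 1 when each probe set was tested on its own, without the intensity trend or with cyclic loess, and 0 after adjustment for muscle level or without the 4 tumors with muscle transcripts; leaving out 1 tumor gave 0 to 3. The 1 called gene against rituximab became 0 without the intensity trend, with the muscle covariate or without those 4 tumors, and 0 to 1 without 1 tumor. Against acadesine, for each single agent and for the interaction the count was 0 throughout. The tumor numbers did not pair the tumors in the comparisons made. Correlations of same-numbered deviations were -0.12 to 0.19 over these, and 0.04 to 0.10 between combination and control. Acadesine against rituximab was not examined. The replicate block left the counts at 3 and 1. The counts over all genes, 450 for combination against control, were 268 with mean probe sets, 261 without the trend, 131 with the muscle adjustment, 39 without the 4 tumors and 140 to 576 without 1 tumor. REL passed with the mean of its probe sets (adjusted p = 0.0392 from limma) and with the filter on dim genes (adjusted p = 0.0440).

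Of 1430 repeated values of single genes, 62 changed sign, and 0 of these passed the test; none was of NFKB1, REL or TNFAIP3. Without the 4 tumors NFKB2 had 0.076 after acadesine, -0.021 for combination against rituximab and -0.097 for the interaction, RELA 0.089 and 0.017 for combination against acadesine and rituximab, NFKBIA 0.055 and NFKBIE 0.073 against rituximab, BCL3 0.12 against acadesine, NFKBIB -0.066 after acadesine, and the interactions of RELB and NFKBIA 0.011 and 0.17. With the muscle covariate NFKB2, NFKBIE and BCL3 had -0.0094, 0.099 and -0.053 against rituximab, RELA 0.012 against acadesine, and RELB and NFKBIA interactions of 0.0043 and 0.0098. With array weights RELA had 0.0032 against acadesine, BCL3 -0.025 against rituximab, NFKBIB -0.0014 after rituximab and RELB an interaction of 0.013. Median centring gave NFKB2 and BCL3 -0.023 and -0.025 against rituximab, and cyclic loess gave NFKB2 -0.017. The mean of all probe sets gave NFKBIB 0.0069 in combination against control and RELA an interaction of -0.0030. Leaving out 1 tumor, the ranges of values that changed sign were, against acadesine, -0.15 to 0.034 (NFKB2), -0.059 to 0.065 (RELA) and -0.17 to 0.073 (BCL3). Against rituximab they were -0.045 to 0.050 (NFKB2), -0.15 to 0.10 (NFKBIE) and -0.080 to 0.052 (BCL3). After acadesine they were -0.11 to 0.076 (NFKB2), -0.19 to 0.014 (RELB), -0.19 to 0.0056 (NFKBIA) and -0.066 to 0.23 (NFKBIB), and after rituximab -0.11 to 0.086 (RELA) and -0.012 to 0.062 (NFKBIB). For the interaction they were -0.074 to 0.11 (NFKB2), -0.10 to 0.096 (RELA), -0.16 to 0.041 (RELB), -0.17 to 0.023 (NFKBIA) and -0.059 to 0.19 (NFKBIE). The causes were not tested.

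Called target genes, 10 in the fit above, were 6 with mean probe sets or without the trend, 3 with the muscle covariate, 1 without the 4 tumors and 3 to 11 without 1 tumor. The 1 called gene among further inhibitors was 0 without the 4 tumors and 0 to 2 without 1 tumor.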
